A study of Mus musculus with 6 samples.

Results

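Bone morphogenetic proteins (BMPs) and the secreted or membrane proteins that restrain them were followed in PDPN+PDGFRα+ stromal cells of MO5 melanomas, in mice with and without a transgene for the ablation of ADAM12+ cells. The 9 genes were chosen by name among the 53801 genes of the table, with earlier results of these data known. They comprise the ligand genes Bmp2, Bmp3, Bmp4 and Bmp8a, the membrane pseudoreceptor gene Bambi, and the genes of the secreted proteins Grem1 (gremlin 1), Chrdl1 (chordin-like 1), Fst (follistatin) and Fstl1 (follistatin-like 1). All 9 were listed with a count in at least 1 library, and 8 of the 9 passed the filter on low counts.

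MO5 tumors grow from B16-OVA melanoma cells inoculated under the skin of C57Bl/6 mice aged 8 to 12 weeks. The DTR group comprised 3 libraries from ADAM12-DTR mice, labelled DTR+, which carry a bacterial artificial chromosome transgene (tTA-Ires-DTR) that places the diphtheria toxin receptor under the control of Adam12 sequences. The Ctrl group comprised 3 libraries from littermates, labelled DTR-, and both groups received diphtheria toxin (DT), so that the toxin is common to Ctrl and DTR. PDPN+PDGFRα+ cells were sorted by flow cytometry, with cells bearing CD45 or CD31 gated out, and stranded libraries of total RNA were sequenced. The transgene is meant to make ADAM12+ cells sensitive to DT, and only PDPN+PDGFRα+ cells present at the time of sorting were measured.

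BMPs are secreted dimers that bind complexes of type I and type II serine/threonine kinase receptors, which phosphorylate SMAD1, SMAD5 and SMAD9 and so switch on target genes such as the Id genes. Antagonists such as gremlin, noggin and the chordins bind BMP dimers outside the cell and keep them from their receptors, whereas follistatin binds activins most tightly and some BMPs more weakly. Within the family BMP3 is atypical, since it can oppose other BMPs, and in connective tissue fibroblasts are a known source of both the ligands and their antagonists.

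The total count per library ran from 22339635 to 34271929. Levels are given as raw counts and as CPM, in which a gene's counts are divided by the library's total after correction with a TMM factor, and 3 counts, the smallest number treated as detected, corresponded to between 0.0872 and 0.132 CPM, a limit that covers counting error only. Adam12 averaged 190 ± 22.1 CPM in Ctrl and 142 ± 27.5 CPM in DTR (SD, n = 3 each), and all 3 DTR libraries were below all 3 Ctrl libraries, as was so for 8.18% of all genes tested. Its log2 fold change was -0.42 (edgeR adjusted p = 0.602). Divided by the fibroblast marker sum described next, Adam12 overlapped between groups, so its level does not by itself show ablation in these libraries. Pdgfra and Pdpn, the genes of the sorting markers, were detected in every library with overlapping groups. The 7 fibroblast markers were Pdgfra, Pdpn, Col1a1, Col1a2, Col3a1, Dcn and Lum. Most of their sum came from Col1a1, Col1a2 and Col3a1 in every library, so it mainly reflects collagen transcripts. The summed level of the 7 ran from 5118 to 13546 CPM in Ctrl and from 5534 to 13989 CPM in DTR. It was at least 10788 CPM in Ctrl 1, DTR 1 and DTR 3 and at most 5534 CPM in the other libraries. That of 8 pigment cell and melanoma markers was higher than the fibroblast sum in every library, at 16324 to 18964 CPM in Ctrl and 15235 to 18013 CPM in DTR, so the sorted fraction also held abundant melanocytic transcripts. In RNA from bulk samples, fewer cells of a type and less RNA per cell cannot be told apart. The sources used here do not say that each of these libraries came from a separate mouse, and p-values measure the spread between the libraries.

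The ligand transcripts Bmp3 and Bmp8a each had their 3 DTR libraries above their 3 Ctrl libraries, by 7.12-fold and 4.50-fold in the fit, and Bambi was lower in every DTR library, at a log2 fold change of -0.43. Chrdl1 was 2.44-fold higher in DTR on average, with overlapping groups, and the other members overlapped between groups as well. None of the 8 tested members passed an adjusted p of 0.05 when Benjamini-Hochberg adjustment was made over the 15133 genes in edgeR's quasi-likelihood test, where 0 genes (0%) passed and the lowest adjusted p was 0.602. Without adjustment 1199 genes had p under 0.05. DESeq2's Wald test called 2 members, Bmp3 and Bmp8a, both higher in DTR, where it called 31 of 20360 genes (0.152%), 17 of them higher (0.0835%). The study's volcano plot labels both genes as higher in these same libraries, from that tool, so this direction is not independent evidence.

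Bmp3 (ENSMUSG00000029335, GRCm38 chr5:98854415-98884396, plus strand) encodes the atypical, BMP-opposing family member. Its counts were 20, 29 and 38 in Ctrl 1, 2 and 3 and 132, 78 and 406 in DTR 1, 2 and 3. These correspond to 0.816, 1.21 and 1.33 CPM in Ctrl and 3.84, 2.51 and 17.9 CPM in DTR. The Ctrl libraries lay close together, whereas DTR 3 held 57.8% of all Bmp3 counts and stood far above DTR 1 and DTR 2, which were themselves above every Ctrl library. The means were 1.12 ± 0.271 CPM in Ctrl and 8.08 ± 8.52 CPM in DTR (SD, n = 3 each). The log2 fold change was 2.83 ± 0.744 (SE), with a 95% interval from 1.11 to 4.55 and an adjusted p of 0.602 in edgeR's quasi-likelihood test. The exact two-sided permutation test gave p = 0.1, which is the smallest that 3 libraries against 3 allow. Without DTR 3 the estimate was 1.496, with an edgeR adjusted p of 0.815. In DESeq2 it was 2.86, with an adjusted p of 0.00297.

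Bmp8a (ENSMUSG00000032726, GRCm38 chr4:123312645-123343252, minus strand) encodes a ligand known from spermatogenesis and adipose tissue. It had 29, 17 and 15 counts in Ctrl 1, 2 and 3 and 93, 63 and 141 counts in DTR 1, 2 and 3. The corresponding levels were 1.18, 0.711 and 0.527 CPM in Ctrl and 2.702, 2.03 and 6.21 CPM in DTR. As for Bmp3, DTR 3 was the highest library and DTR 2 the lowest of its group, and no DTR library reached down to the Ctrl range. The means were 0.807 ± 0.339 CPM in Ctrl and 3.65 ± 2.25 CPM in DTR (SD, n = 3 each). This gave a log2 fold change of 2.17 ± 0.546 (SE, 95% interval 0.91 to 3.43), with an adjusted p of 0.602 in edgeR's quasi-likelihood test, 0.0488 in DESeq2 and p = 0.1 in the exact permutation test. Without DTR 3 it was 1.55, with an edgeR adjusted p of 0.815. Bmp8a shares 8.74% of its 50-base words with its neighbouring copy Bmp8b and with no other gene, and Bmp8b had 0, 2 and 12 counts in Ctrl and 4, 0 and 0 counts in DTR. Bmp8b was highest in Ctrl 3 and Bmp8a in DTR 3, and the part of reads shared between the copies was not tested. Oxct2a, an annotated gene on the same strand inside Bmp8a, had 0 counts in every library.

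The 250 bases before the annotated start of Bmp8a, read from RefSeq on GRCm38.p6, are shown because Bmp8a is the ligand of the called pair for which such a window was given. The window spans chr4:123343253-123343502 and is written along the minus strand, with capitals marking the one match to the SMAD-binding box CAGAC, which is found here on the opposite strand.
Bmp8a: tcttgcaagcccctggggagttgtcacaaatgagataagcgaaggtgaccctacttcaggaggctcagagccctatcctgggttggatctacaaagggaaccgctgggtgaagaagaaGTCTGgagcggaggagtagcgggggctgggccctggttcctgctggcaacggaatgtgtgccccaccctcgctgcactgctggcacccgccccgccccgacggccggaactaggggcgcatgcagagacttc
The box CAGAC occurred on either strand in 42.2% of 32851 such windows, so a match is common. The window held no match on either strand to GGCGCC, the GC-rich SMAD1/5-type motif (9.59% of windows), to the hypoxia response cores ACGTG (16.6%) and GCGTG (28.2%), or to TATAAA (12.4%). Of the 3 other members with a window, Bmp4 held 2 matches to ACGTG, Grem1 held 1 to CAGAC and 1 to GGCGCC, and Fstl1 held none of these 5 motifs. A match describes letters only.

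Bmp4 (ENSMUSG00000021835, GRCm38 chr14:46383520-46390669, minus strand), a ligand that signals through SMAD1/5/9, was at or below 7 counts in the Ctrl libraries and DTR 2 and higher in DTR 1 and DTR 3. Its counts were 7, 1 and 2 in Ctrl and 37, 2 and 41 in DTR. In CPM this was 0.286, 0.042 and 0.070 in Ctrl and 1.07, 0.064 and 1.81 in DTR. DTR 1 and DTR 3 lay above the Ctrl libraries and DTR 2 lay among them, so the groups overlapped. Bmp4 did not pass the filter on low counts. In a fit of all genes with at least 1 count the log2 fold change was 2.86 ± 1.06 (SE), with an adjusted p of 0.617 in edgeR's quasi-likelihood test, and DESeq2 gave 2.90 with an adjusted p of 0.538. In the fits without single libraries that kept Bmp4 it ran from 2.45 (without Ctrl 2) to 3.996 (without Ctrl 1). Bmp2 (ENSMUSG00000027358, GRCm38 chr2:133552159-133562885, plus strand), the closest relative of Bmp4, had 30, 6 and 14 counts in Ctrl and 24, 12 and 32 counts in DTR. The means were 0.655 ± 0.507 CPM in Ctrl and 0.831 ± 0.525 CPM in DTR (SD, n = 3 each), with overlapping groups. The log2 fold change of 0.33 ± 0.730 (SE, edgeR adjusted p = 0.920) had a 95% interval from -1.36 to 2.01, which holds differences in either direction.

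**Figure D1:**
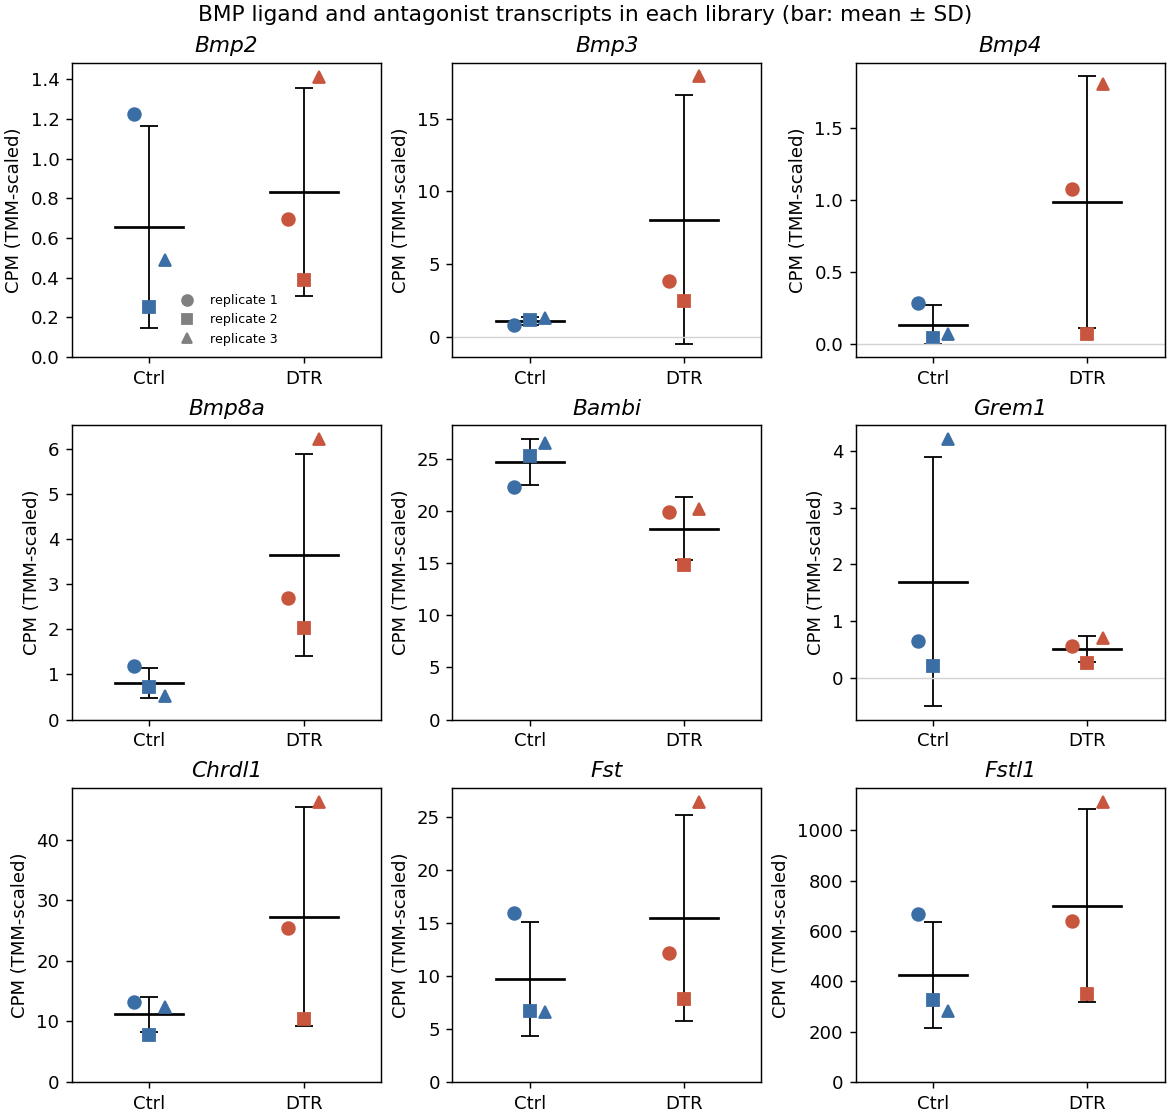
Level of each of the 9 members in every library, in TMM-scaled CPM on linear axes that differ between genes; each symbol is 1 library, the horizontal line the group mean and the bar the SD (n = 3 in each group). Bmp3 and Bmp8a are higher in all 3 DTR libraries than in the Ctrl libraries, Bambi is lower, and DTR 3 is the highest library for 7 of the 9 genes.

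Among the restraining proteins, Bambi (ENSMUSG00000024232, GRCm38 chr18:3507923-3516404, plus strand) encodes a receptor-like membrane protein without a kinase domain, which dampens BMP, activin and TGF-β signaling. It had 546, 605 and 755 counts in Ctrl and 684, 462 and 459 counts in DTR, or 22.3, 25.3 and 26.5 CPM against 19.9, 14.9 and 20.2 CPM. The highest DTR library lay just below the lowest Ctrl library. The means were 24.7 ± 2.18 CPM in Ctrl and 18.3 ± 3.00 CPM in DTR (SD, n = 3 each). The resulting log2 fold change was -0.43 ± 0.153 (SE, 95% interval -0.79 to -0.08), with an adjusted p of 0.602 in edgeR's quasi-likelihood test, 0.645 in DESeq2 and p = 0.1 in the exact permutation test. It ran from -0.51 to -0.30 when single libraries were left out. Sox10, a transcription factor of the melanocyte lineage, was also lower in every DTR library, at 371, 441 and 408 CPM in Ctrl and 323, 361 and 319 CPM in DTR, while the other 7 of 8 pigment markers overlapped between groups. The part of melanocytic transcripts in the Bambi difference was not tested.

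Chrdl1 (ENSMUSG00000031283, GRCm38 chrX:143285674-143394262, minus strand) encodes a secreted chordin relative that binds BMP4. Its levels were 13.3, 7.78 and 12.4 CPM in Ctrl and 25.4, 10.3 and 46.3 CPM in DTR, from 325, 186 and 354 counts and 874, 321 and 1051 counts. DTR 1 and DTR 3 were above every Ctrl library, and DTR 2 fell within the Ctrl range. The means were 11.2 ± 2.95 CPM in Ctrl and 27.3 ± 18.1 CPM in DTR (SD, n = 3 each). Its log2 fold change was 1.29 ± 0.480 (SE, 95% interval 0.18 to 2.396), with an adjusted p of 0.602 in edgeR's quasi-likelihood test, 0.738 in DESeq2 and p = 0.3 in the exact permutation test. Leaving out DTR 3 gave 0.68, and leaving out DTR 2 gave 1.68.

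Grem1 (ENSMUSG00000074934, GRCm38 chr2:113746164-113758646, minus strand) encodes gremlin 1, which traps BMP2 and BMP4. Its counts were 16, 5 and 120 in Ctrl and 19, 8 and 16 in DTR, or 0.653, 0.209 and 4.21 CPM against 0.552, 0.257 and 0.705 CPM. The single library Ctrl 3 was the highest by far, and the 5 others lay within the same low range. The log2 fold change of -1.76 ± 1.00 (SE, edgeR adjusted p = 0.664) became 0.22 without Ctrl 3, so its sign depended on that library.

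Fst (ENSMUSG00000021765, GRCm38 chr13:114452290-114458951, minus strand) encodes follistatin, the soluble activin trap. It was at 15.9, 6.69 and 6.57 CPM in Ctrl and 12.2, 7.82 and 26.4 CPM in DTR, from 160 to 600 counts per library. Fstl1 (ENSMUSG00000022816, GRCm38 chr16:37776873-37836514, plus strand), which encodes an abundant glycoprotein of mesenchymal cells with a follistatin-like domain, was at 669, 326 and 282 CPM in Ctrl and 640, 350 and 1113 CPM in DTR. Of the 50-base words of Fstl1, 2.68% also occur in other genes, most often in Gm10033. In both genes Ctrl 1 was above DTR 1, DTR 3 was the highest library, and the groups overlapped. The log2 fold change was 0.67 ± 0.49965 (SE, edgeR adjusted p = 0.734) for Fst and 0.72 ± 0.447 (SE, edgeR adjusted p = 0.684) for Fstl1. Without DTR 3 these were 0.04 and 0.22, and without Ctrl 1 they were 1.22 and 1.20.

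Across the 9 members DTR 3 was the highest library in 7, all but Bambi and Grem1, for which Ctrl 3 was the highest. Of the 8 members tested, 6 had a log2 fold change above 0 and 2 below, with a median of 0.69 beside -0.0029 for all genes tested. At an unadjusted p under 0.05, 3 members were higher, where 3.81% of all genes tested were, and 1 was lower, where 4.11% were. Groups did not overlap for 2 members that were higher (6.32% of all genes tested) and for 1 that was lower (8.18%). Bmp3 and Bmp8a, which the study labelled as higher in these same libraries, were 2 of the 3 and both of the 2 higher members. These counts therefore describe the members and test nothing. The plot of log2 fold changes by gene shows how the interval of each member relates to these counts.

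**Figure D2:**
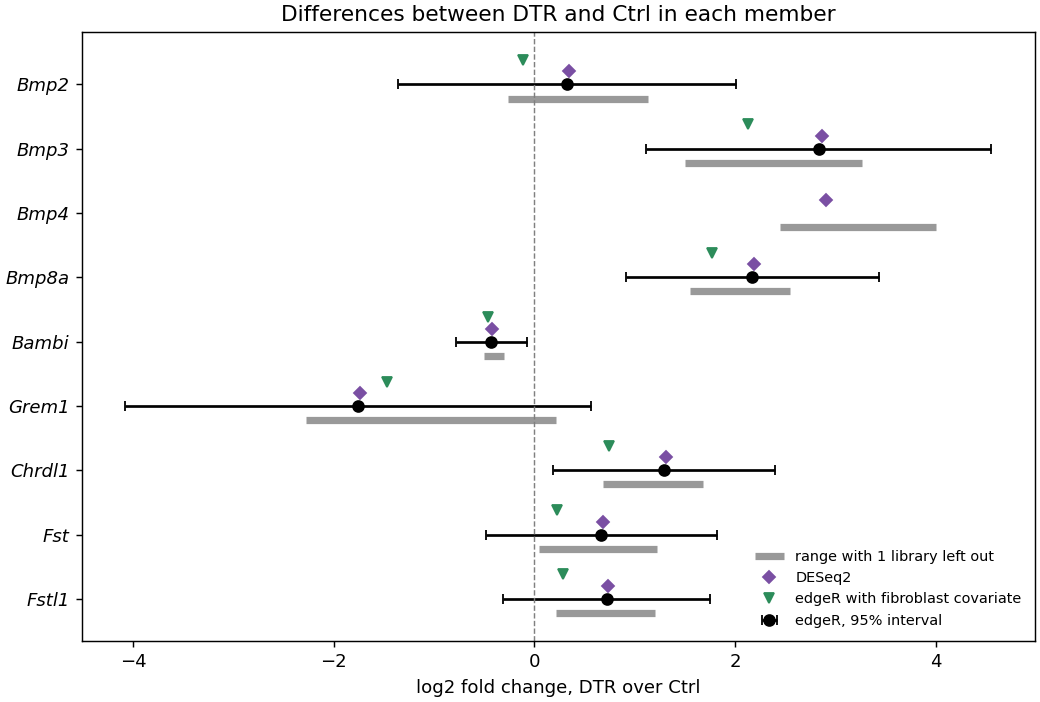
Log2 fold change of each member, DTR over Ctrl: black points and bars give the edgeR estimate with its 95% interval, diamonds DESeq2, triangles edgeR with the fibroblast marker sum as a covariate, and grey bars the range over fits that leave out 1 library. Bmp4 has no black point because it did not pass the filter, and its grey bar covers only the fits that kept it. Grey bars cross 0 for Bmp2 and Grem1 and for no other member.

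Per kilobase of exon, the mean level in Ctrl was 86.6 CPM per kb for Fstl1, 4.87 for Bambi, 2.12 for Fst, 1.65 for Chrdl1 and 0.408 for Grem1. The ligands followed with 0.336 CPM per kb for Bmp8a, 0.184 for Bmp2, 0.152 for Bmp3 and 0.059 for Bmp4. In this order the neighbours Fst and Chrdl1, Grem1 and Bmp8a, and Bmp2 and Bmp3 differed by less than the larger SD of the pair. In DTR the mean level was 143 CPM per kb for Fstl1, 4.05 for Chrdl1, 3.61 for Bambi, 3.37 for Fst, 1.52 for Bmp8a, 1.09 for Bmp3, 0.437 for Bmp4, 0.234 for Bmp2 and 0.122 for Grem1. There the step from Fstl1 to Chrdl1 alone exceeded the larger SD of the pair. In both groups each ligand had a lower mean level per length than Fstl1, Bambi, Chrdl1 and Fst. Summed over the 4 ligands, the level was 1.07, 0.549 and 0.569 CPM per kb in Ctrl and 2.32, 1.32 and 6.20 in DTR, so that each DTR library exceeded each Ctrl library. Most of the DTR sum came from Bmp8a and Bmp3, the genes described above as apart, while Bmp2 and Bmp4 overlapped. Summed over the 5 restraining proteins it was 146, 74.1 and 66.8 CPM per kb in Ctrl and 141, 77.4 and 243 in DTR, with overlapping groups, and Fstl1 made up 85.8% to 93.2% of it.

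The fibroblast marker sum differed between libraries of the same group, and several members moved with it. Single markers did not all follow the sum, which was similar in Ctrl 1 and DTR 3. In these libraries Pdgfra was at 125 and 132 CPM, but Dcn was at 224 and 600 CPM and Lum at 50.2 and 116 CPM. Fstl1 was at 669, 640 and 1113 CPM in the 3 libraries with a high sum (Ctrl 1, DTR 1 and DTR 3) and at 326, 282 and 350 CPM in the others (Ctrl 2, Ctrl 3 and DTR 2). Bmp3 did not follow this order, since Ctrl 1, at 0.816 CPM, was its lowest library. Divided by the marker sum, Bmp3 was at 0.060, 0.234 and 0.261 CPM per 1000 CPM of fibroblast markers in Ctrl and at 0.355, 0.453 and 1.28 in DTR. On the same scale Bmp8a was at 0.087, 0.137 and 0.103 in Ctrl and at 0.250, 0.366 and 0.444 in DTR. In both genes the groups remained apart after this division. Fstl1, Fst, Chrdl1 and Bambi overlapped between groups on this scale, Bambi included although its CPM did not. Chrdl1, for instance, was at 0.979, 1.498 and 2.43 in Ctrl and at 2.35, 1.87 and 3.31 in DTR.

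**Figure D3:**
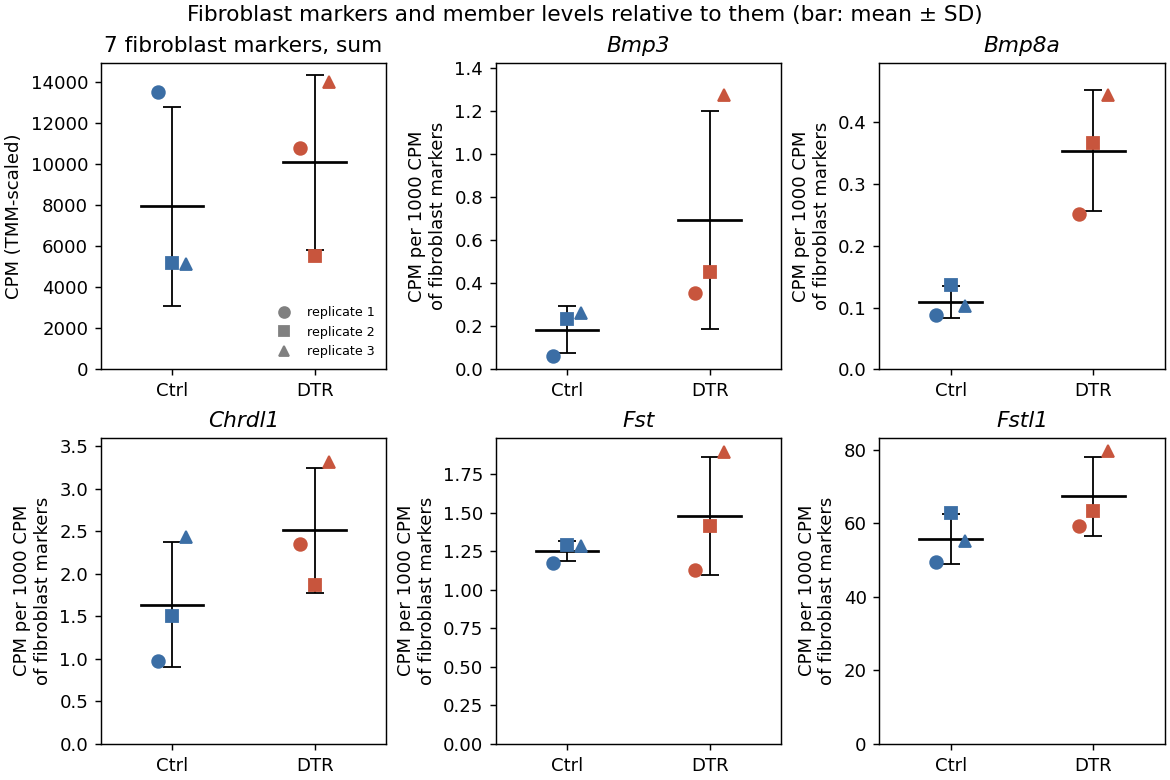
Summed level of 7 fibroblast markers in each library (first panel, TMM-scaled CPM) and 5 members divided by that sum (CPM per 1000 CPM of fibroblast markers); each symbol is 1 library, with the group mean and SD (n = 3 each). The marker sums of the groups overlap, and after division Bmp3 and Bmp8a are still higher in all 3 DTR libraries while Chrdl1, Fst and Fstl1 overlap.

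In an edgeR fit that holds the log2 marker sum as a covariate, chosen after seeing the data, the log2 fold change was 2.12 ± 0.843 (SE, adjusted p = 0.605) for Bmp3 and 1.77 ± 0.440 (SE, adjusted p = 0.588) for Bmp8a. It was 0.74 ± 0.395 (SE, adjusted p = 0.664) for Chrdl1, 0.28 (adjusted p = 0.664) for Fstl1 and 0.22 (adjusted p = 0.811) for Fst, in the same edgeR test. The estimate of Bambi was -0.46, close to that without the covariate. DTR 3 also stood apart in endothelial markers, whose sum over 6 genes was 78.8 CPM there and 11.6 to 27.3 CPM elsewhere. Most of this came from Tek (62.8 CPM) and Kdr (11.98 CPM), whereas Pecam1, the CD31 gene of the sort gate, was at 4.01 CPM in DTR 3 and between 2.61 and 8.02 CPM elsewhere. The defining endothelial gene Cdh5 had 0 counts in DTR 3, and Emcn and Cldn5 had at most 2 counts in any library. Mural markers summed to 20.41 to 45.6 CPM in Ctrl and 14.3 to 20.37 CPM in DTR, so that the sum was lower in every DTR library by a narrow margin, and of the 7 genes Cspg4 was lower in every DTR library. Sums of hematopoietic, keratinocyte, adipocyte, skeletal muscle and Schwann cell markers overlapped between groups. The part of these cell types in the results was not tested.

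Of the 11 other BMP and GDF ligands, 3 passed the filter on low counts and 1 had no counts. The median log2 fold change of the 3 was 0.65, from Gdf6 (0.49) through Gdf10 (0.65) to Bmp6 (1.99), and 0 passed the adjusted threshold. This median ran from 0.47 to 1.38 with single libraries left out. With more genes of the list included, it was -0.32 in DESeq2 and -0.70 with all genes of at least 1 count. Bmp6, the ligand that in liver governs hepcidin, had 95, 21 and 17 counts in Ctrl and 210, 106 and 267 in DTR. All 3 DTR libraries were above Ctrl 2 and Ctrl 3, but Ctrl 1, at 3.88 CPM, was above DTR 2, at 3.41 CPM. Divided by the fibroblast marker sum, Bmp6 was higher in every DTR library. The means were 1.78 ± 1.82 CPM in Ctrl and 7.09 ± 4.26 CPM in DTR (SD, n = 3 each). Its log2 fold change of 1.99 ± 0.738 (SE) had an unadjusted p of 0.0274 and an adjusted p of 0.602 in edgeR's quasi-likelihood test, and 0.203 in DESeq2. Of the 7 activin and myostatin ligands, which follistatin binds, 3 were tested. Gdf11 had a log2 fold change of -0.0042, Inhba of 0.12 and Inhbb of 0.39, and the groups overlapped for each. Inhba, the activin A subunit gene, had 374, 54 and 261 counts in Ctrl and 210, 374 and 250 in DTR.

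Among 20 other antagonists and modulators, 14 were tested, of which 9 had a log2 fold change above 0 and 5 below. Their median was 0.22, with a range from -0.42 for Tll2 to 0.75 for Bmper. The median was 0.0878 without DTR 3 and 0.0534 with an offset on genomic span. In edgeR's quasi-likelihood test 0 of the 14 had an unadjusted p under 0.05, and in DESeq2 Bmper alone did, with an adjusted p of 0.775, where 3.85% of the genes tested by DESeq2 were higher at that p. Noggin (Nog), the best known BMP antagonist, had 2, 10 and 0 counts in Ctrl and 6, 3 and 0 in DTR and was not tested. Chordin (Chrd) had 73, 17 and 29 counts in Ctrl and 85, 20 and 72 in DTR, with a log2 fold change of 0.41 ± 0.713 (SE, edgeR adjusted p = 0.894). Both genes overlapped between groups, as Grem1 did.

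Of 13 receptors and co-receptors, 12 were tested, with a median log2 fold change of 0.12 and a range from -0.33 for Bmpr1b to 0.84 for Tgfbr3, the betaglycan gene. The median ran from -0.0374 (without DTR 3) to 0.19 with single libraries left out, and was -0.0027 with the offset on genomic span. Acvr2a, a type II receptor for activins and BMPs, was the one receptor gene whose groups did not overlap, with 634, 462 and 635 counts in Ctrl and 942, 1202 and 703 in DTR. Its means were 22.5 ± 3.27 CPM and 32.3 ± 5.77 CPM (SD, n = 3 each), and its log2 fold change was 0.52 ± 0.165 (SE, edgeR adjusted p = 0.602). Tgfbr3 was at 2176, 797 and 1268 counts in Ctrl and 2976, 1825 and 3498 in DTR, with overlapping groups (edgeR adjusted p = 0.648). All 7 SMADs and SMAD ubiquitin ligases were tested, with a median of 0.17. It ran from -0.0247 (without DTR 3) to 0.21 with single libraries left out, and was 0.0473 with the offset on genomic span. Smurf2, a ubiquitin ligase that targets SMADs and receptors, had the highest value, 0.31 ± 0.126 (SE, edgeR adjusted p = 0.604), and its groups did not overlap, at 60.9 ± 5.31 CPM in Ctrl and 75.8 ± 10.4 CPM in DTR (SD, n = 3 each). Smad2 did not overlap either, at a log2 fold change of 0.21, and Smad5 had the lowest value, -0.12. Divided by the fibroblast marker sum, Acvr2a, Smurf2 and Smad2 overlapped between groups.

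The BMP target genes showed no shared direction. Of 13, 8 were tested, 4 above 0 and 4 below, with a median log2 fold change of 0.02 and a range from -0.94 for Smad9 to 1.34 for Id1. Smad9 had 26, 1 and 29 counts in Ctrl and 22, 12 and 1 in DTR, with overlapping groups and an SE of 1.06. In Ctrl 2 and DTR 3 it was thus below the 3 counts treated as detected. Id1, the usual readout of SMAD1/5/9 activity, was low throughout, with 8, 5 and 3 counts in Ctrl and 17, 15 and 15 in DTR. Every DTR library was above every Ctrl library, at 0.214 ± 0.111 CPM and 0.546 ± 0.0998 CPM (SD, n = 3 each), and the log2 fold change was 1.34 ± 0.608 (SE, edgeR adjusted p = 0.630, DESeq2 adjusted p = 0.903). Divided by the fibroblast marker sum, Id1 stayed higher in every DTR library by a narrow margin. It was at most 0.040 CPM per 1000 CPM of fibroblast markers in Ctrl and at least 0.046 in DTR. The more abundant Id2 and Id3 had overlapping groups, with log2 fold changes of -0.06 and 0.10. They are named beside Id1 after their values were seen. Over all 71 genes of these lists, 47 were tested, 29 above 0 and 18 below, with a median of 0.16. Of the 47, 3 had an unadjusted p under 0.05 in edgeR, all higher, where 3.81% of all genes tested were, and 4 did not overlap between groups, all higher, where 6.32% were. None of the 47 was lower at that p or without overlap, where 4.11% and 8.18% of all genes tested were. In DESeq2 4 had an unadjusted p under 0.05, with Bmper added, all higher, beside 3.85% of the genes tested there, while 0 passed the adjusted threshold in edgeR or in DESeq2.

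**Figure D4:**
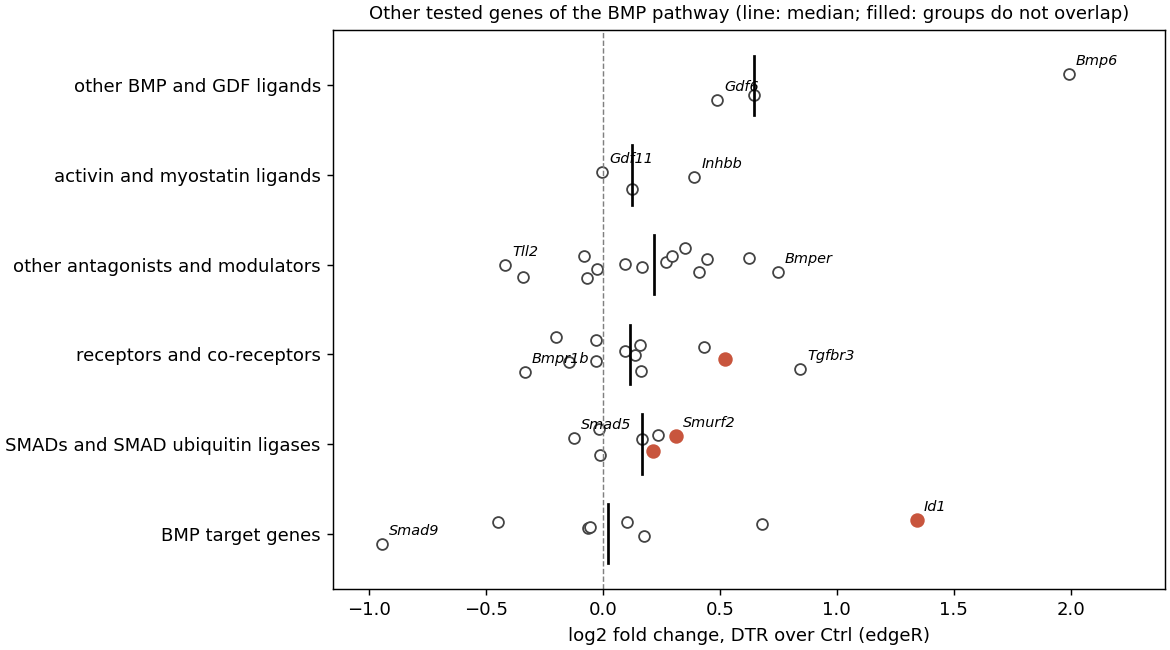
Log2 fold change, DTR over Ctrl, of the 47 tested genes of 6 lists of the BMP pathway that hold none of the 9 members; each circle is 1 gene, the vertical line the median of its list, and filled circles are genes whose groups do not overlap. The filled circles are Acvr2a, Smad2, Smurf2 and Id1, and the lists' medians lie between 0.02 and 0.65.

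For 4 members the genes with the most similar pattern over the 6 libraries were sought by Pearson's correlation of log2 CPM among 10247 genes with a mean of at least 5 CPM. For Bmp3 these were Kifap3 (r = 0.996), Rap1b (0.994) and Zadh2 (0.991), which share its peak in DTR 3 but with far smaller differences, for example a log2 fold change of 0.27 for Kifap3. For Bmp8a they were Nfib (0.987), Tshz2 (0.986) and Rras2 (0.985), with log2 fold changes of 0.43, 1.36 and 1.14. For Bmp4 they were Gm12796 (0.984), Abi3bp (0.981) and Atp10a (0.980), and for Grem1 they were Emc7 (0.988), Necap1 (0.987) and Nfkbib (0.977). The values are descriptions over 6 libraries that also share the differences in fibroblast marker level and the outlying position of DTR 3 or Ctrl 3.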

How the data were processed

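RNA-seq was available for 6 libraries of PDPN+PDGFRα+ cells, 3 Ctrl and 3 DTR, grouped by the sample titles. The authors trimmed reads with cutadapt 3.4, aligned them to GRCm38 (mm10) with STAR 2.7.3a, counted them per gene with featureCounts 2.0.1, as their processing notes list, and deposited raw counts, which are the values used here. The table also holds size-factor-scaled values and the authors' own comparison (fold changes, p-values and dispersions), which were not used. Coordinates and exon lengths came from GENCODE M21 (GRCm38).

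Genes were kept by filterByExpr (minimum count 10, minimum total 15), which left 15133 of 53801. After TMM scaling, the effect of genotype was fitted over the 6 libraries in edgeR 4.0.16 (glmQLFit, two-sided quasi-likelihood test, R 4.3.3) with no covariate, and p-values were adjusted by the Benjamini-Hochberg method. The fit had a common dispersion of 0.0662 and 4 residual degrees of freedom, moderated with 3.94 prior ones. Single genes were also compared by exact two-sided permutation of log2(CPM + 0.1), which cannot give a p below 0.1 here. Log2 CPM for correlations used a prior count of 2, except for Bmp4, which did not pass the filter and was taken as log2(CPM + 0.1).

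All members were named. From each pathway list the lowest and the highest gene, every gene with an unadjusted p under 0.05 and genes given by name were named (one result is not reported here), together with Adam12, Pdgfra and Pdpn. For Bmp3, Bmp8a, Grem1 and Bmp4 the 3 genes of the highest correlation were named, and Gdf10, Smad2, Id2 and Id3 were named after their values were seen. Members and lists were chosen with earlier results of these data known, so they were described by counts and medians.

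Alternatives were other scalings or filters, DESeq2 1.42.0, robust moderation, a replicate block, a loess offset (span 0.5) on genomic span, each library left out, and a fibroblast marker covariate added after seeing the data.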

Additional observations from a re-analysis of the deposited data

How the results depend on the processing

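The 16 fits of all genes called 0 genes, except DESeq2 (31 genes, 2 of them members) and edgeR without Ctrl 1 (2 genes, 4930509G22Rik and Gm8518, neither a member), so that leaving out single libraries gave 0 to 2. In DESeq2 the log2 fold changes of Bmp3 (2.86) and Bmp8a (2.19) passed the threshold. Bmp2 turned to -0.11 with the fibroblast covariate and ran from -0.27 (without DTR 3) to 1.13 with single libraries left out, being also below 0 (-0.06) without Ctrl 2. Grem1 ran from -2.28 to 0.22 (without Ctrl 3) in the same fits. The median of the other BMP and GDF ligands became -0.32 in DESeq2 and -0.70 with all genes of at least 1 count, both of which include more genes of the list, and ran from 0.47 to 1.38 with single libraries left out. The receptor median became -0.0027 with the offset on genomic span and 0.0267 with the covariate, and ran from -0.0374 to 0.19 with single libraries left out, the lowest without DTR 3. The SMAD median became 0.0473 with the offset and 0.0698 with the covariate, and ran from -0.0247 to 0.21, again lowest without DTR 3. With single libraries left out, the median of the other antagonists and modulators ran from 0.0878 (without DTR 3) to 0.323. That of the activin and myostatin ligands ran from -0.0625 (without DTR 2) to 0.625 (without Ctrl 1). That of the target genes ran from -0.0745 (without DTR 3) to 0.218 (without Ctrl 1). The cause of these shifts was not tested. Over all results and alternatives, 13 values moved, 4 reversed and 2 newly passed the threshold. The moved values were medians that shifted by more than the spread between libraries, or counts of called genes that changed. The other 314 kept their direction and side of the threshold, kept their count, or moved by less than that spread.

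Deviations from the group means correlated at 0.114, 0.132 and -0.0420 between Ctrl and DTR libraries of the same replicate number. Between Ctrl and DTR libraries of different numbers they correlated at -0.215 to 0.102. These few values cannot settle whether the replicate numbers pair the libraries. The fit with the replicate number as a block called 0 genes, gave 1271 genes at an unadjusted p under 0.05 instead of 1199, and moved the Grem1 log2 fold change to -0.96. The filter of at least 10 counts in every library removed Bmp2, Bmp4 and Grem1, which then have no value. These 3 genes had fewer than 10 counts in at least 1 library, and depth limits what can be shown for them.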
